A study of Mus musculus with 22 samples.

Results

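Primordial germ cells (PGCs), the embryonic precursors of eggs and sperm, were followed from day 1 to day 2 of culture with basic fibroblast growth factor (bFGF) and no inhibitor. The comparison was defined by the sample titles and rests on 2 of the 22 arrays of the series, 1 for each day. Both cultures started from mouse PGCs of embryonic day E11.5, and the labels give the medium as Knockout DMEM with KSR, glutamine, non-essential amino acids, mercaptoethanol and leukaemia inhibitory factor (LIF), with bFGF for the induction of embryonic germ cells. RNA came from SSEA-1 positive cells. For context, values are also given for uncultured PGCs of the same embryonic day and for the 6 other cultures taken at day 2. Those 6 had bFGF together with the MEK inhibitor PD325901 (1 µM), the GSK inhibitor CHIR99021 (3 µM), the TGF-beta receptor inhibitor A83-01 (250 nM), both kinase inhibitors with A83-01, 4-hydroxytamoxifen (4OHT, 100 nM; used to activate AKT) or all of these. The labels do not give the number of embryos behind a culture, the strain or the feeder cells.

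PGCs keep part of the pluripotency network running, among it Pou5f1, Nanog and Sox2, while they also express germ cell regulators such as Prdm1, Tfap2c and Dppa3. With bFGF and LIF in culture some of them convert into embryonic germ cells, which are pluripotent and no longer committed to the germ line. The first days of culture are the window in which this conversion starts. Day 1 and day 2 in bFGF without any inhibitor are 2 points in that window, with 1 array each, and conversion itself was not measured.

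Each gene is given by its level, the log2 intensity of its probe minus the log2 of the 75th percentile intensity of the array, so that a level of 0 means the 75th percentile. Levels belong to different probes and are compared between arrays, not between genes. The difference is the level at day 2 minus the level at day 1 on the log2 scale. The scanner software calls each probe well above background or not. Where this call was made on only 1 of the 2 arrays, the dim side took its own level or, if higher, the lowest level that passed the call on that array, and the result is a bound, written as "at least N-fold". With 1 array a side no difference has a p-value or a standard error, and the day cannot be told apart from the culture, the sort or the array. These are bulk samples, in which fewer cells of a type and less RNA per cell cannot be told apart either.

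Of the 28100 genes on the array, 17211 were well above background at day 1 or day 2, and 15881 on both days. At day 2, 680 genes (3.95%) were at least 2-fold higher and 885 (5.14%) at least 2-fold lower, together 1565 (9.09%); 230 of the former and 281 of the latter were bounds. The median difference of all measured genes was 0.03. The arrays lay on the same slide, had 60.2% of probes well above background each, and had their 75th percentiles at intensities of 668 and 705. Of the arrays given for context, only that of both kinase inhibitors with A83-01 lay on that slide too. The others lay on other slides, with 75th percentiles down to 252 with 4OHT and 124 with all additions. The lowest level passing the background call was -5.41 at day 1, against -3.70 in uncultured PGCs, -3.89 with 4OHT and -2.65 with all additions. Slide and intensity therefore cannot be told apart from culture in those values. Over 168 probes spotted at least 5 times, the SD of the difference had a median of 0.05, and over 5675 genes with several measured probes the SD between probes had a median of 0.11 and a root mean square of 0.30. These are errors within an array and not between cultures.

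**Figure D1:**
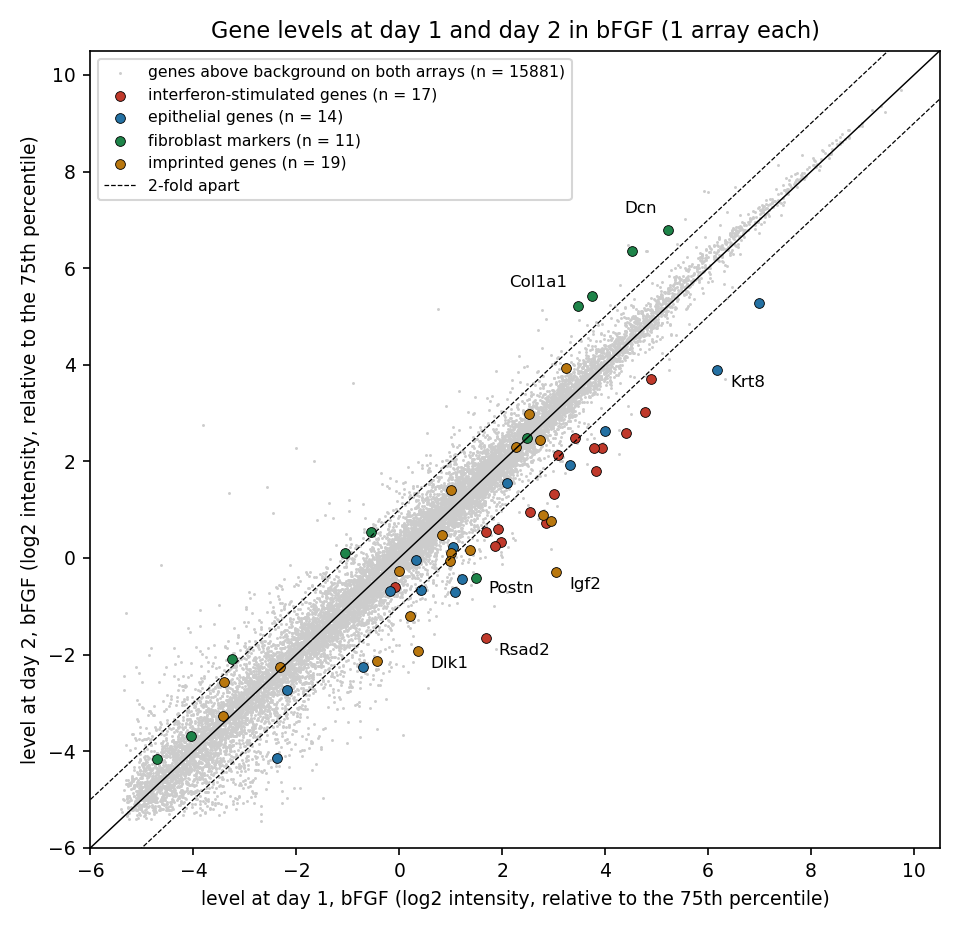
Level of each gene at day 1 (x axis) and day 2 (y axis) in bFGF, log2 relative to the 75th percentile of the array, for the 15881 genes well above background on both arrays; coloured points are 4 gene lists, the solid line marks equal levels and the dashed lines a 2-fold difference. The interferon-stimulated genes lie below the solid line, as do the epithelial genes, while Dcn and Col1a1 lie above it.

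The highest differences came with a spatial pattern on the arrays. Among probes well above background on over 15 arrays, 18 were over 4-fold below all 21 other arrays on the day 1 array. Of these, 17 lay along a diagonal strip between rows 487 and 513 of 532. Of the 64 measured spots in that strip, 28 (43.75%) were at least 2-fold higher at day 2 and 4 at least 2-fold lower. The strip was drawn through those 17 probes, and the day 2 array is among the 21, so much of that share was fixed by the choice. The share over all spots was not computed. A spot at least 2-fold apart with 2 or more such neighbours of the same direction within 150 µm is called part of a local patch here: this held for 333 of the 1097 higher spots and 333 of the 1322 lower spots. Spots had a median of 17 neighbours within that radius. How many patch spots a random scatter would give was not computed, so a spot in a patch is not by itself an error. Probes elsewhere on the array gave a check. Where a gene higher at day 2 had another measured probe, that probe was also at least 2-fold higher for 61 of 89 genes (68.5%) outside patches and 1 of 19 (5.26%) inside them. For lower genes the counts were 86 of 112 (76.8%) outside and 15 of 21 inside. Without patch spots, 470 of 16824 genes (2.79%) were at least 2-fold higher and 676 (4.02%) lower, together 1146 (6.81%). Genes read from a patch are marked below.

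**Figure D2:**
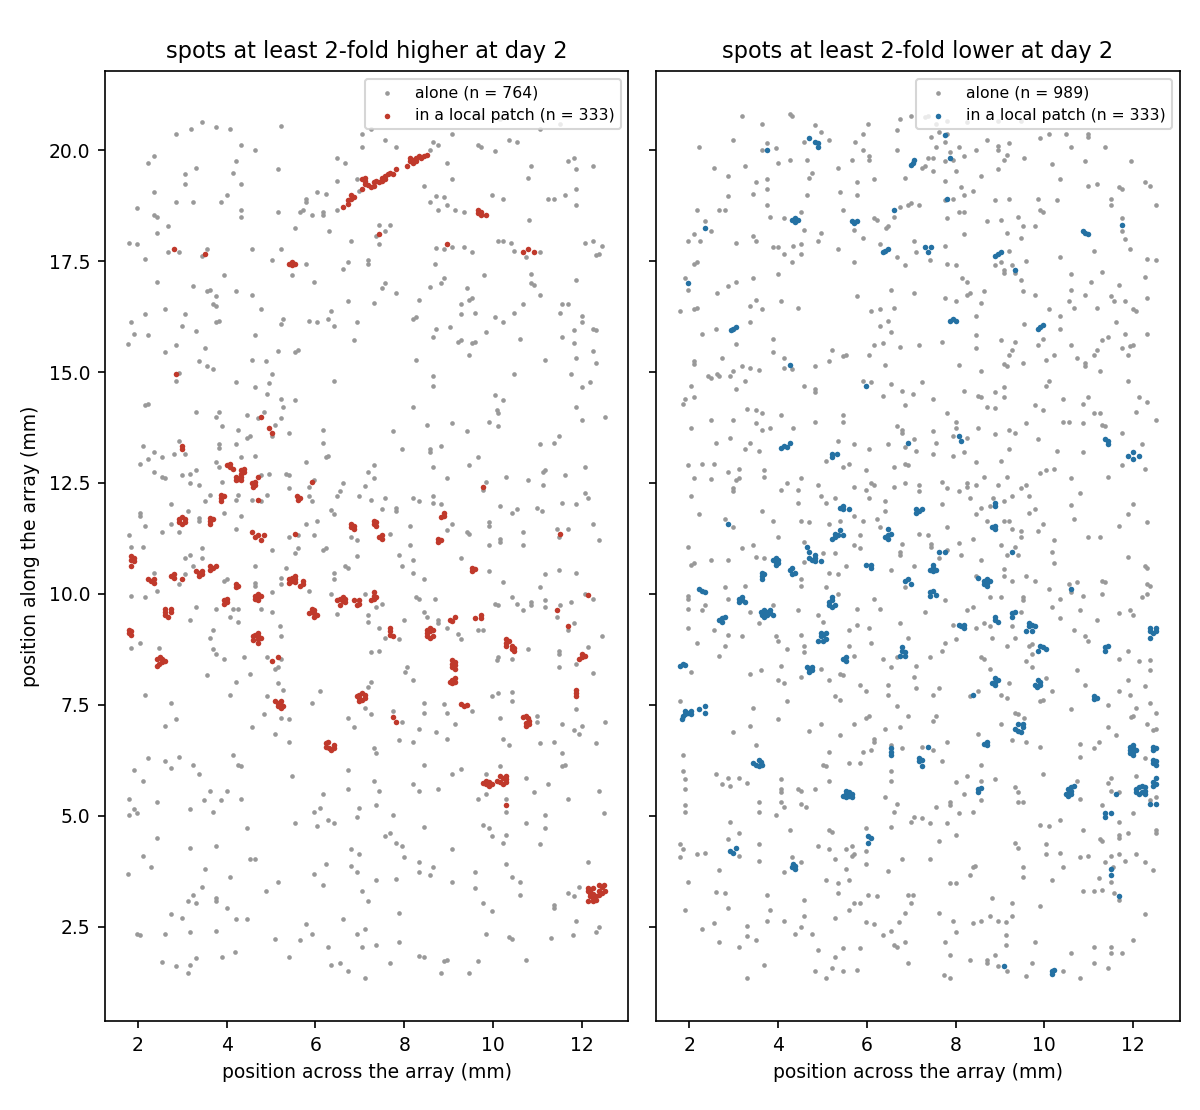
Position on the array, in mm, of the measured spots at least 2-fold higher at day 2 (left, 1097 spots) and at least 2-fold lower (right, 1322 spots); coloured spots are those in local patches, 333 in each panel. A diagonal line of coloured spots is seen near the top of the left panel and small clusters stand elsewhere in both panels.

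Of the 12 genes with the highest difference among those measured on both arrays, 10 were read from a patch. Guk1, which encodes guanylate kinase, stood at -3.82 at day 1 and 2.76 at day 2, while uncultured PGCs had 3.21 and the 6 other day 2 cultures 2.62 to 4.18. The day 1 array is thus the low one, and the difference of 6.57 has no second probe behind it. Tollip, Rit1, Klhl12, Ctsd, Tnks1bp1, Wdr34, Tpr and Krtcap3 followed, with differences from 3.38 to 4.64; all were called well above background on all 22 arrays. Of the 12 genes, 8 had another measured probe, and at none of the 8 was that probe 2-fold higher. The lysosomal protease gene Ctsd, for example, went from 0.76 to 5.16 by the probe used, and by its probe outside the patches the difference was -0.03. Gdf10, Plxnc1 and Ggt7 complete the 12, with differences of 2.96, 2.85 and 2.85. The highest bounds were Rsl1d1 (at least 102-fold), Gpn2 (at least 75.3-fold), Uckl1 (at least 37.0-fold) and Olfr391 (at least 33.0-fold), of which 3 lay in patches.

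Interferon-stimulated genes had the lowest median difference of the 41 gene lists examined. Type I interferons bind the receptor chains Ifnar1 and Ifnar2, whose kinases Jak1 and Tyk2 activate STAT factors, which join Irf9 to switch on antiviral genes through interferon-stimulated response elements. All 17 listed genes were measured on both days and all 17 were lower at day 2; 14 were at least 2-fold lower, against 5.14% of all genes, and the median difference was -1.61 against 0.03. Without the 2 members read from patches, 12 of 15 were at least 2-fold lower, and the list had a median of -1.59. In 12 of the 17 the level at day 1 was above all 7 day 2 arrays, which was so for 8.96% of all measured genes. All 17 were lower on the day 2 array in bFGF, which is among these 7, so the share over all genes is not a like baseline.

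Rsad2, whose product viperin blocks the replication of many viruses, stood at 1.68 at day 1 and -1.65 at day 2. It was not well above background in uncultured PGCs, and the 6 other day 2 cultures ran from -2.54 to 1.31. The day 1 array was thus the highest of these, with a 10.0-fold difference to day 2, and 2 further probes gave a median difference of -3.60. Isg15, a ubiquitin-like modifier, was at -2.19 in uncultured PGCs, 4.77 at day 1 and 3.03 at day 2, and Usp18, which removes Isg15 from proteins, was at 3.83 and 1.79. The other day 2 cultures had Isg15 between 1.73 and 5.40 and Usp18 between 1.13 and 4.50, and the upper ends of both ranges exceed day 1. Both upper ends belong to the culture with all additions, and the culture with 4OHT was also above day 1 for both genes. Oas1a, which makes the messenger that activates an antiviral RNase, was at 2.85 and 0.73 and was read from a patch, as was Isg15.

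Sensors and effectors of the pathway shared the direction. Ifih1, a sensor of double-stranded RNA, was at 1.98 and 0.32, and another probe gave a difference of -1.76. Irf7, a factor that amplifies interferon production, was at 1.86 and 0.25. Cxcl10, a chemokine for T cells, was at 4.40 and 2.59. The RNA-binding Ifit1 and Ifit3 and the GTPase Gbp3 differed by -1.59, -1.67 and -1.69. The smallest difference of the list was that of Ifit2, at -0.09 and -0.60.

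The genes upstream and further targets were looked up after the values of the list had been seen. Ifnb1, a ligand, was at -3.72 at day 1 and not well above background at day 2, a difference of at least 3.16-fold. It was also not above background in uncultured PGCs, where the lowest level that passed the call was -3.70. A level like that of day 1 could therefore have been missed there. The receptor chain Ifnar1 was at -1.19 and -1.37, and Ifnar2 was at 1.02 and 1.64. The kinase Jak1 was at 3.16 and 3.61, and Tyk2 at -0.26 and -0.45. Receptors and kinases therefore lay within 2-fold of day 1. Of the transcription factors, Stat2 was at 1.70 and 0.96, and Irf9 at 2.48 and 2.06. Irf1 was at 4.26 and 4.19 and Irf3 at 2.88 and 2.49. Among targets outside the list, Mx2 was at 2.94 and 0.18, Ddx60 at -0.15 and -2.25, Gbp7 at -0.81 and -3.03, and Irgm1 at 3.95 and 2.37. Class I antigen presentation genes, many of which also respond to interferon, differed less: 1 of 10 was at least 2-fold lower, with a median of -0.20. Psmb8, a subunit of the immunoproteasome, was that gene, at 0.26 and -1.62, while B2m was at 6.03 and 6.42. Probes of the Oas, Ifit and Gbp families may share signal between similar genes.

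**Figure D3:**
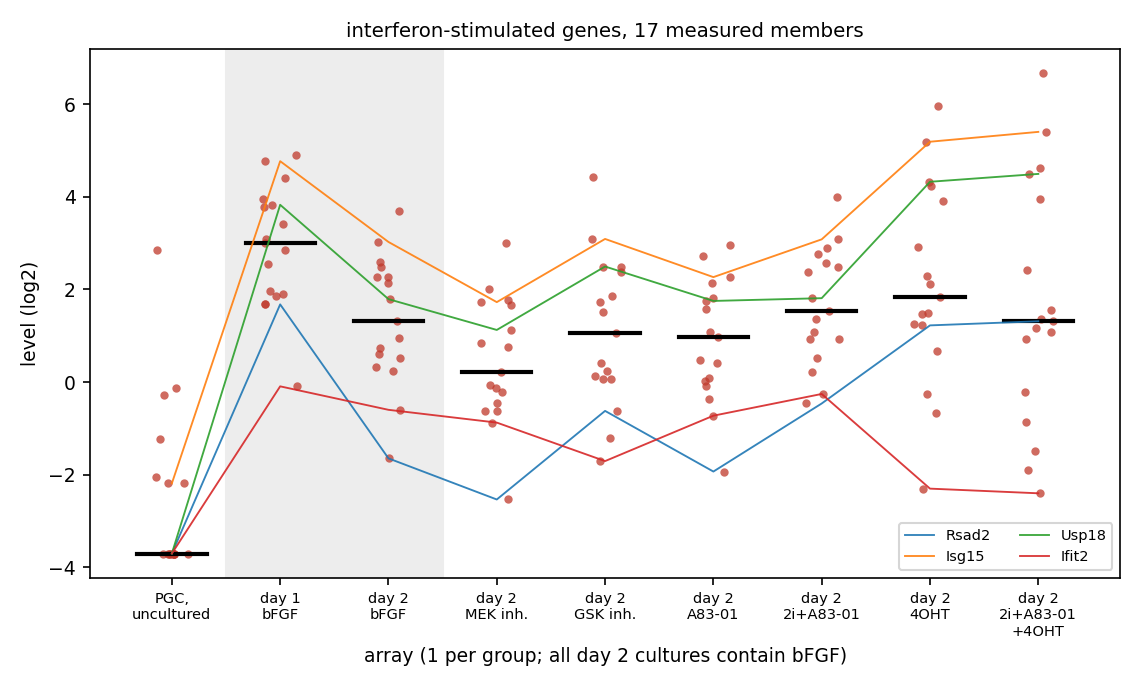
Levels (log2, y axis) of the 17 interferon-stimulated genes on the arrays of uncultured PGCs, day 1, day 2 and the 6 other day 2 cultures, 1 array each; points are genes, black bars the median over genes, lines follow 4 genes, and dim probes are drawn at the lowest level that passed the background call on their array. The shaded pair shows the bar going from 3.01 at day 1 to 1.31 at day 2.

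The response element is shown in promoters of 4 members with a match before the start, as examples whose differences run from -1.15 for Gbp2 to -3.33 for Rsad2. RefSeq promoters of GRCm38.p6, from 250 bases before to 50 bases after a start, were found for 15 of the 17 genes and searched on both strands for GAAA, any 2 bases and GAAA, which reads TTTC, any 2 bases and TTTC from the other strand. The motif was in 11 of the 15, against 3.99% of the 27025 genes in the table and 3.44% of its 32851 promoters. The 4 sequences below are read 5′ to 3′ on the strand of the gene, with matches in capitals. Rsad2 lies at chr12:26456403-26456702 (minus strand), Ifit1 at chr19:34640639-34640938 (plus), Ifit3 at chr19:34583279-34583578 (plus) and Gbp2 at chr3:142620413-142620712 (plus).
Rsad2: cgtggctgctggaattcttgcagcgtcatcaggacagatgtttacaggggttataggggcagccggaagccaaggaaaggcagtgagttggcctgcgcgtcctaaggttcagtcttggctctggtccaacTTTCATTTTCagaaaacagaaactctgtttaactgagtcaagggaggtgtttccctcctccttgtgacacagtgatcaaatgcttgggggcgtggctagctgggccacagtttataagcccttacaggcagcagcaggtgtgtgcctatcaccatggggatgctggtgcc
Ifit1: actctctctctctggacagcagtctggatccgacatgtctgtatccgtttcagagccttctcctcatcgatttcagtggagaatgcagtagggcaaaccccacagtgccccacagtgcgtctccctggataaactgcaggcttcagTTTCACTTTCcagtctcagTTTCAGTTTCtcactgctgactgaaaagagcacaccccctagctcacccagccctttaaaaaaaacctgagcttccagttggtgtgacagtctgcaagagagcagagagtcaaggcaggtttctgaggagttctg
Ifit3: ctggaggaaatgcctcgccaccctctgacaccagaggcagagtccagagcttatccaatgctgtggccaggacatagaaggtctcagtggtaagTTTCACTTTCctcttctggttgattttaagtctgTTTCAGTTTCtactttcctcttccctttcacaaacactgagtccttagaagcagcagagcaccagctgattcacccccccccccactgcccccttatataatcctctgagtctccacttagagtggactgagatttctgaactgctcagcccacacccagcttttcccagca
Gbp2: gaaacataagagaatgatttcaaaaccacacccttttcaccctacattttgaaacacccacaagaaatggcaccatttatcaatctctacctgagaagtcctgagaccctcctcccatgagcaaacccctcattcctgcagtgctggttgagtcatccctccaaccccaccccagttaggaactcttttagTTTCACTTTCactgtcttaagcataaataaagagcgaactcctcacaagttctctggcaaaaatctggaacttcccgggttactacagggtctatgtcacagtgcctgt
The first match begins 120 bases before the start in Rsad2, 104 in Ifit1, 156 in Ifit3 and 59 in Gbp2, and Ifit1 and Ifit3 hold 2 matches each. A match is a string of letters and not a tested binding site. Among 11524 measured genes with a promoter in the table, 4.88% were at least 2-fold lower at day 2, and among the 427 with the motif 42 (9.84%) were. With the list left out this was 32 of 416 (7.69%), and 17 (4.09%) were at least 2-fold higher, against 3.45% of all matched genes. Those 32 still include other interferon-induced genes, such as Tgtp1, Ddx60, Gbp7 and Irgm1, so the share is not separate from that response. The median difference of genes with the motif was 0.046, and 0.051 with the list left out, against 0.013 for all matched genes.

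Epithelial genes were lower at day 2 as well. All 14 were measured on both days and all 14 were lower. At least 2-fold lower were 9, against 5.14% of all genes, and the list had a median difference of -1.38. Krt8, a keratin of simple epithelia, was at 4.06 in uncultured PGCs, 6.17 at day 1 and 3.88 at day 2, and a further probe gave a difference of -2.29. Its partner Krt18 was at 7.0 and 5.27. The levels of both days lay within the range of the other day 2 cultures, where Krt8 ran from 2.66 to 6.56 and Krt18 from 4.79 to 7.86. In 1 of the 14 epithelial genes the level at day 1 was above all 7 day 2 arrays, against 8.96% of all measured genes. The tight junction genes Ocln (-2.37 and -4.15), Cldn6 (1.08 and -0.70), Cldn4 (1.21 and -0.44) and Cldn7 (3.99 and 2.62) were all at least 2-fold lower. Crb3, a polarity gene, was at -0.71 and -2.26. The adhesion genes Cdh1 and Epcam, which PGCs express themselves, differed less, by -0.81 and -0.36. The summed intensity of the list was 241 at day 1 and 71.4 at day 2 in units of the 75th percentile, 106 in uncultured PGCs and 46.3 to 403 in the other day 2 cultures.

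Fibroblast markers were higher at day 2. Of 12 markers, all measured, 8 were at least 2-fold higher, against 3.95% of all genes, and 1 was at least 2-fold lower, with a median difference of 1.16. Dcn, a collagen-binding proteoglycan, was at 0.06 in uncultured PGCs, 5.21 at day 1 and 6.79 at day 2. Col1a1, the main fibrillar collagen chain, was at -2.50, 3.47 and 5.21, and 2 further probes gave a median difference of 1.82. Both genes were thus lowest before culture and highest at day 2 among these 3 arrays. Col3a1 was at 3.74 and 5.43. Col1a2, read from a patch, was at 4.53 and 6.35. The growth factor receptors Pdgfra and Pdgfrb each differed by 1.16. Fap, a surface protease of activated fibroblasts, was above background at day 2 only, at least 3.72-fold higher. Postn, an adhesion protein of the matrix, was the exception at 1.49 and -0.42. The median level of the 12 markers nevertheless was 0.47 at day 1 and 0.32 at day 2, a change opposite in sign to the median of the differences.

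The sort was for SSEA-1, which marks PGCs and not fibroblasts. Whether the RNA of the fibroblast markers came from other cells or from the sorted cells themselves was not tested. The summed intensity of the fibroblast markers was 7.72 in uncultured PGCs, 94.4 at day 1 and 282 at day 2. In the 6 other day 2 cultures it was 5.88 to 310. Of the 12 markers, 11 were above background on both arrays. PGC markers had sums of 180 in uncultured PGCs, 123 at day 1 and 90.9 at day 2, with 63.8 to 188 in the other day 2 cultures. Genes of later germ cells had sums of 153 at day 1 and 156 at day 2, and naive pluripotency genes 370 and 348. The part of fibroblast RNA in the differences given here was not tested. Smooth muscle and contractile genes did not follow the fibroblast list: Tagln, an actin-binding protein, was at 6.32 and 3.71, with a second probe at -2.78, while Acta2 was at 4.47 and 4.24 and the list median was -0.12.

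Matrix and mesenchymal genes followed the fibroblast list in part. Of 21 matrix and basement membrane genes, 9 were at least 2-fold higher and 1 lower, against 3.95% and 5.14% of all genes. Their median difference was 0.61. By quantile and lowess scaling 8 were at least 2-fold higher, and without patch spots 8 of 20 were. The median level of the list was 2.61 at day 1 and 2.51 at day 2, while its summed intensity was 157 and 245. The microfibrillar collagens Col6a2 (0.54 and 2.58; its other probe gave a difference of 1.00) and Col6a1 (1.48 and 3.34) had the highest differences of the list, followed by the cross-linking enzyme Lox (-3.60 and -1.81). The gelatinase Mmp2 was at 1.01 and 2.51, the protease inhibitor Timp3 at 4.28 and 5.64. The basement membrane genes Lama1 (-0.66 and -2.37), Col4a1 (3.44 and 2.97) and Col4a2 (2.61 and 2.18) were lower. Of 11 genes of mesenchymal transition, 3 were at least 2-fold higher and none lower, with a median of 0.56. S100a4, a calcium-binding protein of motile cells, was at 2.77 and 5.13, above 5 of the 6 other day 2 cultures. Snai1 (-0.96 and 0.38) and Twist2 (-0.55 and 0.58) encode repressors of Cdh1 and related factors. Zeb2, Snai2, Vim and Twist1 were higher by 0.56 to 0.74.

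**Figure D4:**
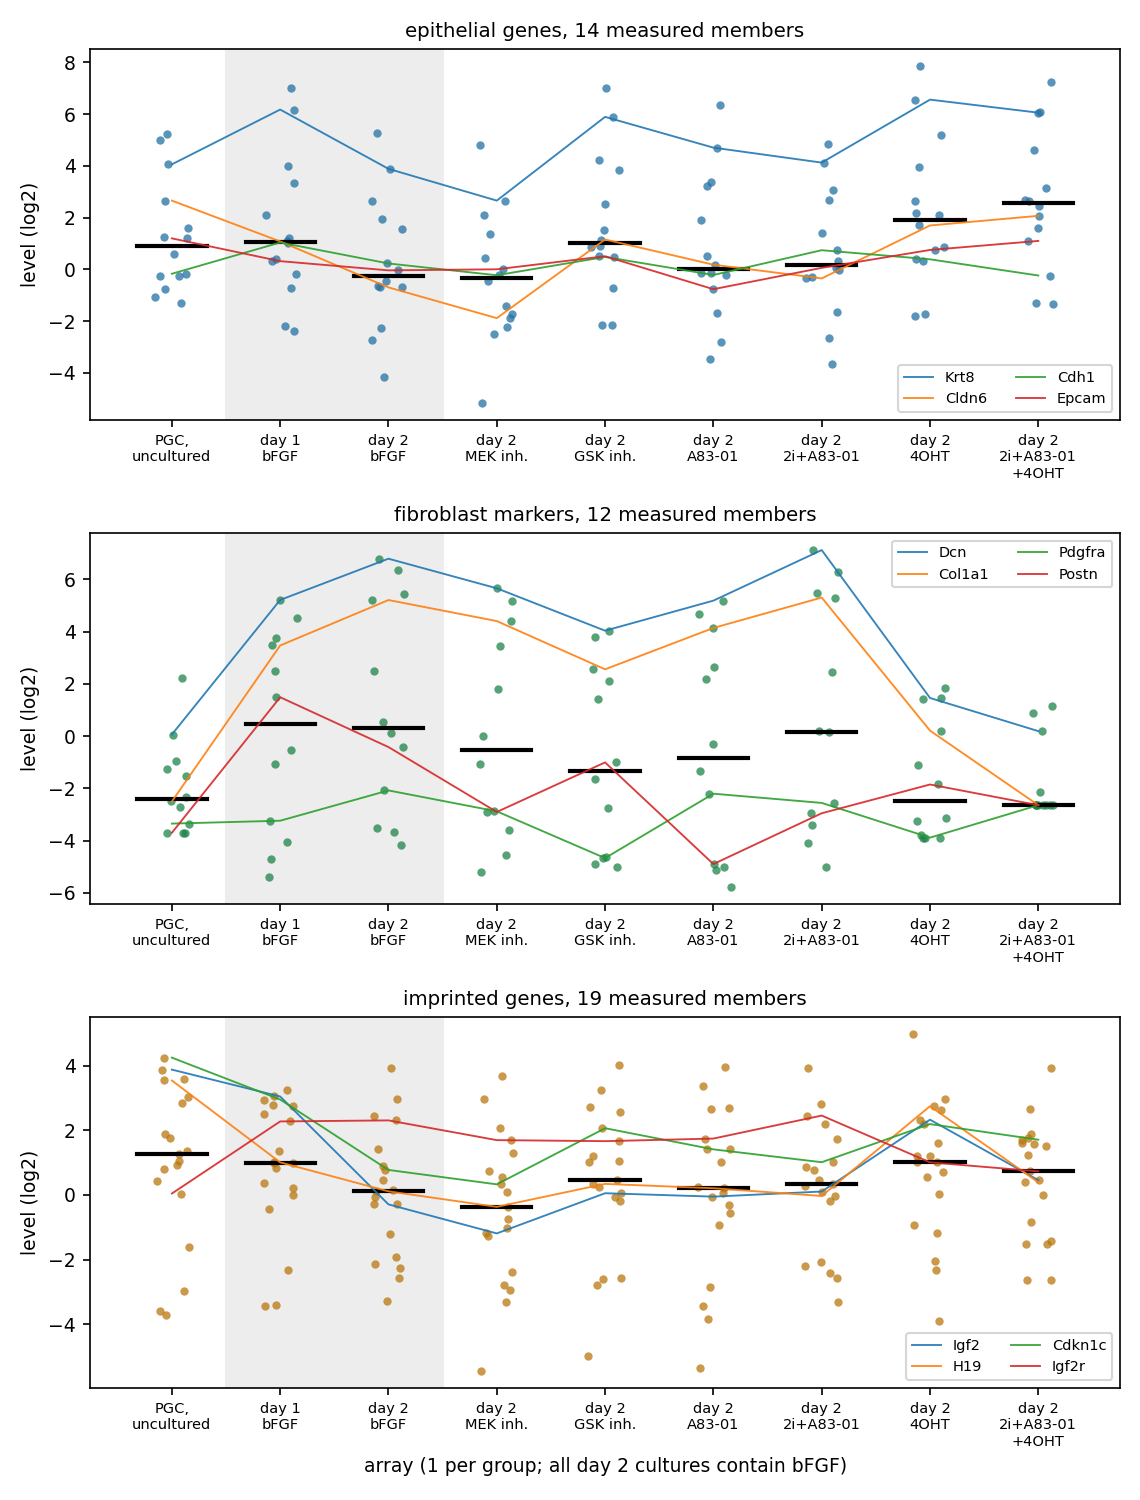
Levels (log2, y axis) of epithelial, fibroblast and imprinted genes on the same 9 arrays, 1 array each; points are genes, black bars medians over genes, lines follow 4 genes a panel, and dim probes are drawn at the lowest level that passed the background call on their array. Between day 1 and day 2 (shaded) Krt8, Postn and Igf2 go down and Dcn and Col1a1 go up, while the bar of the fibroblast panel goes from 0.47 to 0.32.

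Imprinted genes, which are expressed from 1 parental allele in somatic cells and whose marks are erased in PGCs, split. Of 19 measured members 8 were at least 2-fold lower and none higher, against 5.14% and 3.95% of all genes. The median was -0.36. Igf2, a fetal growth factor, was at 3.88 in uncultured PGCs, 3.05 at day 1 and -0.29 at day 2, and its other probe gave -3.37. The 6 other day 2 cultures had Igf2 at -1.19 to 2.33, so the day 1 level lay above all of them. Cdkn1c, an inhibitor of cyclin-dependent kinases, was at 2.95 and 0.77. Mest was at 2.79 and 0.89, Nnat at -0.42 and -2.13, and Phlda2 at 0.21 and -1.21. The lower members thus include a growth promoter, Igf2, and the growth restrainers Cdkn1c and Phlda2. Dlk1, read from a patch, was at 0.36 and -1.92, and its probe outside the patches gave -2.08. H19, which lies beside Igf2 and is normally expressed from the opposite allele, was at 1.01 and 0.11. Igf2r and Kcnq1ot1 differed by 0.03 and 0.06, and Meg3 and Sgce were higher by 0.85 and 0.69. In 6 of the 19 the level at day 1 was above all 7 day 2 arrays, against 8.96% of all genes. The day 2 array in bFGF is among the 7 here too, so this share is not a like baseline.

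PGC markers were lower at day 2, mostly by small amounts. All 13 measured PGC markers were well above background on both days, so the markers of the labelled cell type were present, and all 13 were lower at day 2, but only Fut9 was at least 2-fold lower; the median was -0.52. Fut9 makes the SSEA-1 epitope itself and was at -2.59 and -3.79, with 3 other probes at a median of -1.21. Nanos3, needed for PGC survival, was at 1.6 in uncultured PGCs, -0.45 at day 1 and -1.38 at day 2. Prdm1, the repressor that specifies PGCs, was at -0.29 and -1.14, and Tfap2c, its partner, at 3.06 and 2.23. Dnd1 was at 1.69 and 0.98, Dppa3 at 4.85 and 4.33, and Kit, the receptor PGCs need to survive, at 1.37 and 1.05. Cxcr4, the receptor that guides PGC migration, was at -2.0 and -2.94. Prdm14 was not analysed here.

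Of 22 measured genes of later germ cells 1 was at least 2-fold higher and 2 were lower, against 3.95% and 5.14% of all genes. The median was -0.24. Stra8, which answers retinoic acid before meiosis, was not above background in uncultured PGCs and stood at 2.77 and 4.35. Ddx4 was at 1.87 and 1.08, Mael at 1.45 and 1.26, and Dazl at 2.69 and 2.71. The 2 lower genes, Tdrd9 (read from a patch) and Tdrd1, serve the piRNA pathway and differed by -1.38 and -1.36.

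The naive pluripotency genes stayed within 2-fold with the exception of Tbx3, at -1.02 and 0.14; 17 of 25 were lower and the median was -0.30. Pou5f1 was at 3.36 and 3.31, Nanog at 2.21 and 1.82, Sox2 at 1.59 and 0.68, Esrrb at 2.57 and 1.98, and Zfp42 at 3.57 and 3.09. Klf4 was at 3.06 and 3.84. Sox2 thus had the largest lower difference of the list, at -0.91, and Nr0b1 and Gbx2 followed at -0.87 and -0.81. Of 9 measured primed epiblast genes 4 were at least 2-fold lower, against 5.14% of all genes, and the list had a median of -0.57. Without patch spots 3 of 9 were, against 4.02% of all genes. These 3, Fgf5, Lhx1 and Foxa2, are also members of the FGF, mesonephric and extraembryonic endoderm lists, so the counts of those lists overlap with this one. Fgf5, a marker of the primed state, was above background at day 1 only, at least 3.00-fold lower. Lhx1, Wnt3 (read from a patch) and Foxa2 differed by -1.67, -1.34 and -1.23, and Pou3f1 and Eomes by -0.57 and -0.33, the last as a bound. Among genes of the totipotent-like state only Usp17la was measured, at -3.32 and -2.03.

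Mitosis genes were slightly higher. Of 14 mitosis genes 13 were higher and none was 2-fold apart, with a median of 0.45. Ccna2 was at 3.12 and 4.03, the mitotic kinase Cdk1 at 2.52 and 3.29, and Ube2c, a ubiquitin enzyme of mitotic exit, at 3.63 and 4.32. For 9 of the 14 the day 1 level lay below all 7 day 2 arrays, which was so for 20.9% of all measured genes. That share is not a like baseline, since 13 of the 14 were already higher on the day 2 array in bFGF. Mki67, Birc5 and Aurkb were higher by 0.68, 0.65 and 0.65. Of 10 CDK inhibitors and D-type cyclins 4 were at least 2-fold higher and 1 lower, against 3.95% and 5.14% of all genes. The median was 0.70. By quantile scaling 2 and by lowess scaling 3 were at least 2-fold higher. Cdkn2c (0.71 and 1.92), Cdkn2d (1.17 and 2.33) and Cdkn2a (1.58 and 2.65) encode INK4 and ARF inhibitors, and Ccnd1 (1.10 and 2.13) a cyclin that drives entry into the cycle. Cdkn1c is the lower one, and Cdkn1b was higher by 0.83. Cdkn1a, the p53 target, was at 2.82 and 2.46.

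Signalling targets differed by pathway. Of 14 ERK-responsive genes none was 2-fold apart (by quantile or lowess scaling 1 was lower), and 9 were lower, with a median of -0.35. The feedback genes Spry1 (2.80 and 1.85), Dusp4 (1.90 and 1.12), Spry4 (-1.35 and -2.11), Etv5 (0.31 and -0.42) and Dusp6 (4.10 and 3.68) were lower. Ier3 (2.80 and 3.59), Fosl1 (1.12 and 1.84) and Egr1 (4.30 and 4.96) were higher. The immediate early genes as a list had a median of 0.42, with 11 of 16 higher and none 2-fold apart; Junb was at 5.51 and 6.12, Egr2 at -1.03 and -0.56, and Egr3, at -3.72 and -4.30, went against them, as did Atf3 at 2.34 and 1.83. Of 9 measured FGF ligands and receptors 2 were at least 2-fold lower, against 5.14% of all genes: Fgf5 and Fgfr4. Fgfr4 was read from a patch, and its 2 other probes gave a median of -0.20.

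Most Wnt targets were lower, in a list that was dim on both days. Of 13 measured genes 12 were lower and 4 of these passed the 2-fold line, against 5.14% of all genes. The median difference of the list was -0.67, and -0.31 with normexp background correction. Its median level was -2.66 at day 1 and -3.57 at day 2, and 9 of the 13 were measured on both arrays. The summed intensity went the other way, from 5.33 to 6.38. Lgr5, a receptor for R-spondin, was at -2.92 at day 1 and below background at day 2, at least 5.73-fold lower. The Wnt feedback inhibitors Rnf43 (-2.56 and -4.05) and Nkd1 (-1.66 and -2.71) and the transcription factor Sp5 (-3.29 and -4.36, read from a patch) were the others, while Axin2 differed by -0.51. Lef1 was at -0.25 and -1.02. Ccnd1 was the only higher member. Of 10 BMP targets 2 were at least 2-fold lower and 1 higher, against 5.14% and 3.95% of all genes, with a median of -0.40. The lower ones were Msx2 (-0.76 and -2.16) and Id2 (2.32 and 0.96), the higher one Id1 (0.98 and 2.11). Hey1 was at 1.54 and 0.60, Msx1 at -3.47 and -4.18, and Atoh8 at -4.06 and -3.40, so members moved both ways. Of the targets of TGF-beta and activin, 2 of 14 were at least 2-fold lower, against 5.14% of all genes. Both, Lefty2 and Ccn2, were read from patches, and Lefty1 was at -1.28 and -1.69. Targets of LIF and STAT3 had a median of 0.36 with none of 11 2-fold apart: Socs3 was at 3.03 and 4.02, Lifr at -1.21 and -0.56 (its 4 other probes had a median difference of -0.40), Junb higher by 0.61 and Stat3 by 0.37, and Socs2 was at 2.56 and 2.10.

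Mesonephric, extraembryonic endoderm and trophectoderm genes were mostly lower. The shares over all genes were 5.14% at least 2-fold lower and 3.95% higher. Of 11 measured mesonephric and tubule genes 10 were lower and 4 at least 2-fold so, with a median of -0.79: Keg1 (-0.86 and -3.05), Pax8 (-2.37 and -4.41), Lhx1 (0.21 and -1.45) and Cdh16 (3.12 and 2.0). Enpep and Wfdc2 differed by -0.92 and -0.79. The summed intensity of the mesonephric list was 42.3 in uncultured PGCs, 32 at day 1, 17.8 at day 2 and 13.1 to 163 in the other day 2 cultures. Of 9 measured extraembryonic endoderm genes 4 were at least 2-fold lower and 1 higher, while their summed intensity was 6.14 at day 1 and 7.15 at day 2. Hnf4a was above background at day 1 only, at least 6.21-fold lower, Afp was at -0.31 and -2.39, Amn (read from a patch) at -0.40 and -1.95, and Foxa2 at -2.97 and -4.20, whereas Gata6 was at 1.09 and 2.14 and Sox17 at -2.69 and -3.05. Of 9 trophectoderm genes 3 were at least 2-fold lower: Plet1 (-0.69 and -2.14), Krt7 (3.73 and 2.58) and Cdx2 (at least 2.36-fold). Tead4, Gata2 and Eomes differed by -0.87, -0.35 and -0.33, and the summed intensity of the trophectoderm list was 15.8 and 7.7.

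Blood cells left little signal on either day. Of 13 blood cell genes 7 were measured, and the summed intensity of these was 41.9 in uncultured PGCs, 1.14 at day 1 and 0.997 at day 2; the embryonic globins Hba-x and Hbb-bh1, the leukocyte marker Ptprc and the erythroid gene Alas2 were not above background on either array. Hbb-y, above background at day 2 only, was read from a patch. Lyz2 was higher by 0.97, and Cd68, Tyrobp, Csf1r and Hba-a1 were lower by 0.57, 0.55, 0.51 and 0.40 on the log2 scale. Gonadal somatic genes had a median of -0.27, with 2 of 13 at least 2-fold lower, against 5.14% of all genes. Endothelial genes had a median of 0.21, with 7 of 9 higher and none 2-fold apart.

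Stress programmes differed between each other. Inducible heat shock genes had a median of -0.05, with 6 of 10 lower. At least 2-fold lower were 3, against 5.14% of all genes. By quantile and lowess scaling the median was -0.22 and -0.18 and 9 of 10 were lower. Hspa1a was at -0.78 and -2.98, Hspa1b at -3.06 and -4.19, and Hspb1 at 4.79 and 3.77. The abundant chaperones Hspa8, Hspd1 and Hsp90aa1 differed by 0.00, 0.01 and 0.01, and Hsph1 and Bag3 by -0.36 and 0.33. The 70 kDa members Hspa1a and Hspa1b are near copies, so their probes may share signal. All 10 targets of the oxidant sensor NRF2 were higher, none of them 2-fold, with a median of 0.47; by quantile or lowess scaling 9 of 10 were higher. Hmox1, which degrades haem, was at 2.79 and 3.76, Srxn1 at 1.06 and 1.94, Gsta4 at 0.45 and 1.33, Osgin1 at 0.66 and 1.5, and Nqo1 at -0.10 and 0.58. Chemokine and cytokine genes had a median of 0.43, with 10 of 13 higher and none 2-fold apart. Cxcl12, the ligand of Cxcr4, was at 1.11 and 2.06, with another probe, read from a patch, at a difference of 6.33. Cxcl5 was at 1.58 and 2.35, and Kitl, the ligand of Kit, at 1.86 and 2.60, while Cxcl1 was at 3.47 and 2.73 and Icam1 at 1.91 and 1.23.

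**Figure D5:**
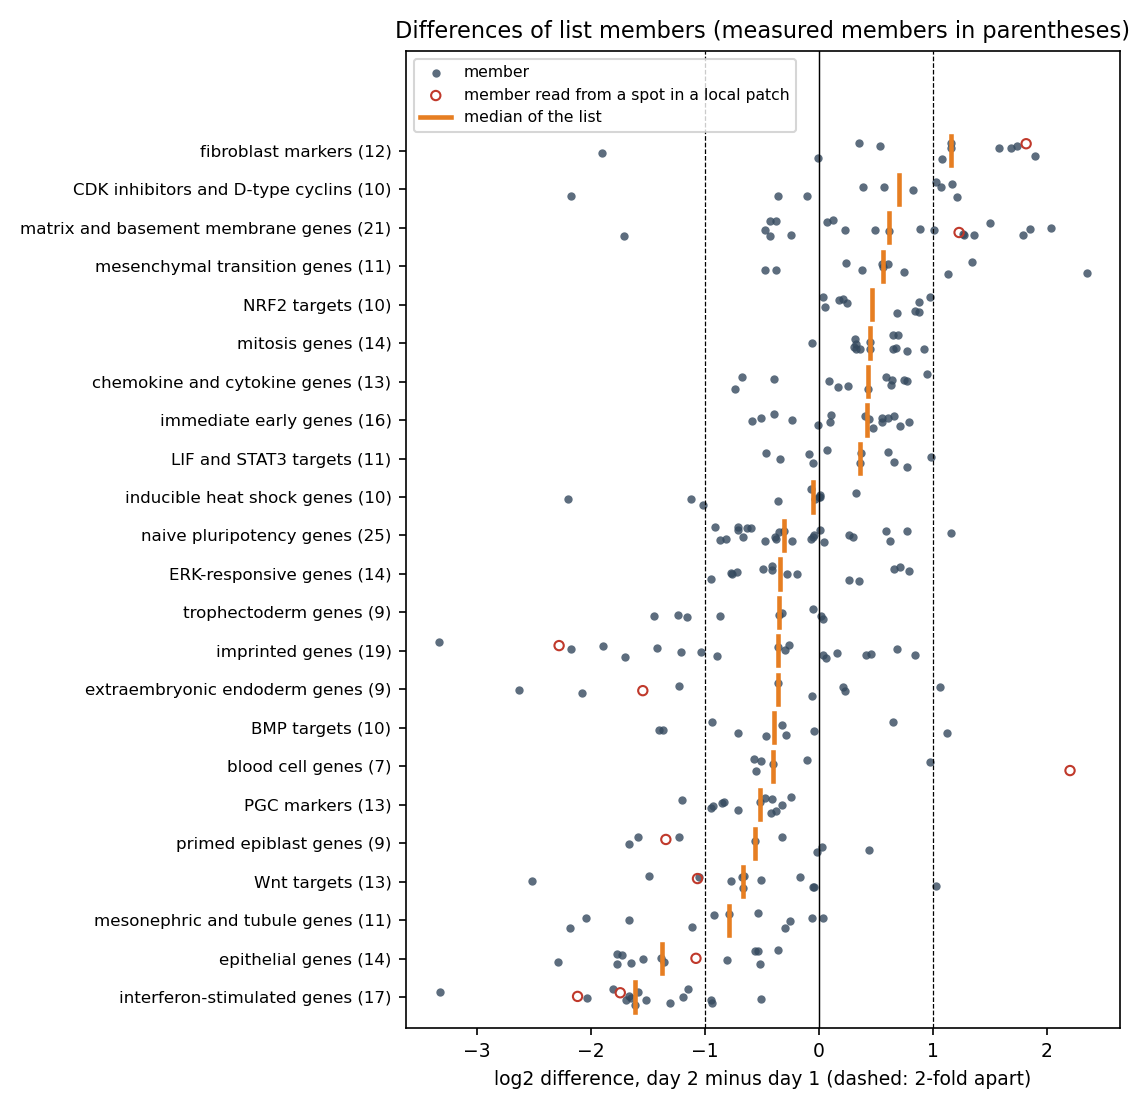
Difference between day 2 and day 1 (log2, x axis) for each measured member of 23 gene lists (y axis, number of measured members in parentheses); orange bars are list medians, open red circles are members read from spots in local patches, and dashed lines mark a 2-fold difference. Interferon-stimulated genes stand at the bottom with a median of -1.61 and fibroblast markers at the top with 1.16.

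Of the 12 lowest genes measured on both arrays 2 were read from patches, Bche and Uroc1. Spink1, a trypsin inhibitor, was at 6.12 in uncultured PGCs, 1.88 at day 1 and -1.88 at day 2, a 13.5-fold difference, and the other day 2 cultures ran from -1.81 to 4.03. The day 2 array was thus the lowest of all these. Cxcl11, a chemokine induced by interferon, was at 0.08 and -3.67, also 13.5-fold. Ifi44, Cmpk2, Ifi202b and Tgtp1, all known as interferon-induced, differed by -3.24, -2.94, -2.82 and -2.79, so that with Rsad2 and Cxcl11 6 of the 12 belong to that response. Igf2, Ddn and Tmem145 were the others, with Ddn at -0.44 and -3.53 and Tmem145 at -1.01 and -3.84. For the 3 of the 12 with another measured probe, that probe was also at least 2-fold lower. The lowest bounds, Nt5c1b (at least 16-fold), Gpr149 (at least 12-fold), Tmem71 (at least 11.3-fold) and Ftcd (at least 11.1-fold), all lay in patches. Further down the list without patch spots, chosen after its values had been seen, came the tight junction gene Cldn1 (-1.70 and -4.39), the kidney genes Fxyd2 (0.17 and -2.36) and Irx1 (-0.76 and -3.38), and Tagln.

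Among genes outside the patches at least 2-fold higher, some were picked here by eye after their values had been seen, and no theme is read from them. Dpt, a proteoglycan-binding matrix protein, was at -4.11 and -1.45, and Prg4, a lubricant proteoglycan, at -5.0 and -2.56. Igfbp6, which binds Igf2, was at 0.91 and 3.15, above 4 of the 6 other day 2 cultures, and uncultured PGCs had -0.73. Prelp, Matn2 and Fmod, further matrix genes, were higher by 2.21, 2.18 and 2.10. Ppef1 was at -3.87 and -1.08, with another probe at 2.97. The retinaldehyde dehydrogenases Aldh1a3 (-5.35 and -2.73) and Aldh1a7 (-1.45 and 0.89) also stood here, together with the protease inhibitor Slpi (2.69 and 4.73) and the secreted Lrg1 (-4.54 and -2.26). Tollip remained at the top of this list because its spot had fewer than 2 such neighbours, although its 2 other probes gave a median difference of 0.18. Tnfaip8l1 was at -0.36 at day 1 and 1.75 at day 2, and with 0.53 in uncultured PGCs and 1.36 to 1.83 in the other day 2 cultures the day 1 array was again the low one, with no other probe to compare.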

How the data were processed

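RNA was hybridised to 1-colour Agilent mouse arrays, read per the file headers with Agilent Feature Extraction 10.7.3.1, which subtracts background and detrends within an array. The deposited values are intensities of spots, not normalized between arrays, and the deposited value table holds the same processed intensities, rounded. Levels were computed here by subtracting, on the log2 scale, the 75th percentile of each array from the processed intensity, with pandas 2.3.3 and numpy 2.4.6. Control and outlier spots were left out and repeat spots averaged, and a gene was read from whichever of its probes averaged highest across the 22 arrays, also where it lay in a local patch. No spot was saturated. Probes were named through RefSeq accessions and symbols. The call of difference was a fold of at least 2, with 1 array a side and no test. The number of arrays limits the precision, and depth in reads does not apply.

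The members and the 41 gene lists were chosen with earlier results of these data known. Some genes belong to several lists, so the counts of different lists are not independent. Named are the 12 highest and lowest differences, the 4 highest and lowest bounds, up to 6 members of each list whose median lay at least 0.3 from that of all genes or of which at least 0.25 of the members were 2-fold apart, and a set of germ cell and pluripotency genes. Further members were named after their values had been seen. Alternatives were other scalings, normexp background correction (offset 50), filters on dim probes, other probe choices and other folds, and, chosen after seeing the data, leaving out local patches. The counting steps were tested on simulated data. Prdm14, Fgf4, Dusp5, Lif and Zscan4d were not analysed here. Some genes are not reported here.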

Additional observations from a re-analysis of the deposited data

How the results depend on the processing

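No paired analysis was possible because each day has 1 array and the labels carry no replicate numbers; for the same reason no array could be left out. The count of genes at least 2-fold higher, 680, became 317 with normexp, 1303 with no filter on dim probes and 450 over genes measured on both arrays. It was 1707 at a threshold of 1.5-fold and 155 at 4-fold. The count of lower genes, 885, became 388 with normexp and 1760 with no filter, and it was 1823 at 1.5-fold and 192 at 4-fold. Among list medians, fibroblast markers had 0.86 and Wnt targets -0.31 with normexp. With no filter on dim probes, primed epiblast genes had -0.26 and blood cell genes -0.11, and the latter also had -0.11 with the probe highest over the 2 arrays. Usp17la, the measured gene of the totipotent-like list, gave 0.76 with normexp, and that list had a median of -0.040 with no filter. The cause of these shifts was not tested. The other 257 list medians over all alternatives moved by less than the root mean square SD between probes of a gene, 0.30. Leaving out patches turned Ctsd to -0.034, Klhl12 to -0.042, Krtcap3 to -1.0 and Tpr to -0.20, since another probe is then used; the probe highest over the 2 arrays gave the same for Ctsd, Krtcap3 and Tpr. Gene differences depended on these choices as well: of 215 named genes, 79 moved by more than 0.30 with normexp and 20 with the median over probes. The other scalings shifted the median of all genes by -0.04 to 0.02.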
